A study of Mus musculus with 12 samples.

Results

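Chemokine and cytokine ligand genes encode the secreted or shed proteins with which cells of a tissue call in and instruct immune cells. A list of 44 of these genes, chosen with earlier results of these data known, was described here. Each was found by its symbol in the deposited expression table, giving 44 of 24537 genes. The list holds 14 ligands that are typical of stromal cells, 12 that are typical of epithelia, 10 that are best known from leukocytes and platelets, and 8 that many cell types make on inflammatory stimulation. A gene was tested where it reached 1 FPKM (sequenced fragments scaled by transcript length and library depth) in at least 3 of the 12 libraries, which 12364 genes did. Of the 44 ligand genes 29 passed, made up of 11 stromal, 12 epithelial, 3 leukocyte or platelet and 3 inducible ligands. A gene that passed through 1 group alone is tested because it is high there, so the counts over these 29 genes are descriptions. Il6 and Cx3cl1 passed through ADSCs alone and Ccl20 through the in vitro iSEPs alone, and for these genes the test with no filter is given too.

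The study compared 4 kinds of primary mouse cell culture by RNA-seq, with 3 libraries each, numbered by mouse 1, 2 and 3. Adipose-derived stromal cells (ADSCs) were Pdgfra(+) cells of subcutaneous fat, induced stratified epithelial progenitors (iSEPs) were either converted from such cells in culture (in vitro iSEPs) or grown out of converted epithelial tissue (in vivo iSEPs), and keratinocytes came from back skin. All 4 groups carried the Pdgfra-creERxLSL-tdTomato alleles, in which an inducible Cre expressed under Pdgfra control switches on a red reporter. In the published study the conversion used the transcription factors DNP63A, GRHL2, TFAP2A and MYC, which the labels do not list, and the ages of the mice are not given in the sources used here. ADSCs grew in DMEM with 10% fetal bovine serum, and the other 3 groups in a serum-free keratinocyte medium, so for every comparison with ADSCs cell type and medium cannot be told apart. Fewer cells of a kind in a culture and less RNA per cell cannot be told apart in these bulk libraries either.

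Chemokines are named CC, CXC or CX3C after the spacing of their first cysteines, and they guide leukocytes through G protein-coupled receptors. The CC ligands Ccl2 and Ccl7 draw monocytes, and Cxcl12 retains blood progenitors and leukocytes. The CXC ligands Cxcl1, Cxcl2, Cxcl3, Cxcl5 and the platelet basic protein encoded by Ppbp draw neutrophils through Cxcr2. Among cytokines, Csf1 keeps macrophages alive, Il6, Il11 and Lif signal through the shared receptor chain Il6st, and the interleukin-1 family members Il1a, Il18 and Il33 are stored in epithelial or stromal cells and act as alarm signals when released. In skin, keratinocytes are a known source of Il1a, Il18, Cxcl14 and Tslp, while fibroblasts are a known source of Ccl2, Csf1, Cxcl12 and Il6. Many of these genes are switched on by the transcription factor NF-kB.

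The labels were checked against defining markers. The summed level of 5 epithelial marker genes was 10.5 to 11.8 FPKM in ADSCs, against 17480 to 22350 in the in vitro iSEPs, 9389 to 19570 in the in vivo iSEPs and 19940 to 21830 in keratinocytes. Summed over 6 stromal marker genes, ADSCs had 6020 to 7553 FPKM, in vitro iSEPs 78.7 to 235, in vivo iSEPs 28.5 to 167 and keratinocytes 25.8 to 32.4. Of these 6 genes 4 were called higher in the in vitro iSEPs than in keratinocytes, as were 5.22% of all genes. The 18 leukocyte marker genes summed to 9.57 to 75.1 FPKM in ADSCs, 14.8 to 42.6 in the in vitro iSEPs, 20.4 to 26.8 in the in vivo iSEPs and 54.2 to 90.1 in keratinocytes. Of these 18 genes, 5 to 12 were listed at 0 in each library. Cd3e and Cd207 were at 0 in all 12 libraries, and Tyrobp and Adgre1 in all 9 epithelial libraries. The 2 markers called higher in both kinds of iSEPs were S100a8, which keratinocytes also make, and Cd68, a lysosomal gene abundant in macrophages. Cd68 was at 0.751 to 3.05 FPKM in ADSCs, 8.09 to 13.8 in the in vitro iSEPs, 9.78 to 22.3 in the in vivo iSEPs and 2.29 to 3.70 in keratinocytes (2.26 and 2.68 in the iSEPs against ADSCs, adjusted p = 0.000252 and 7.89e-05). Its part in the ligand values was not tested. ADSC mouse 2 stood apart with 7 of these 18 genes at 1 FPKM or more, against 2 and 3 in the other ADSC libraries, led by the macrophage lysozyme Lyz2 at 50.5 FPKM against 4.54 and 7.94. In vivo iSEP mouse 3 stood apart among the iSEPs with the simple epithelial keratin Krt8 at 103 FPKM, against 0.934 or less in the other iSEP libraries except in vitro iSEP mouse 2 at 7.17. Krt8 and the related keratin gene Krt18 together were at 198.4 FPKM in this library and at 52.07 to 65.15 in keratinocytes. Several ligand values below also set in vivo iSEP mouse 3 apart. Libraries held 21010000 to 27770000 reads in listed genes, and the depth behind a low value is given in reads where it matters.

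To show what the regulatory DNA of these genes looks like, promoter sequences were read from RefSeq on GRCm38.p6, the build on which mm10 coordinates are given. A window of 250 bases before the transcript start was at hand for 32 of the 44 genes. The NF-kB match GGGANTTTC was searched on both strands, with N for any base. It stood in 6 of the 37 windows of these 32 genes (Cxcl1, Cxcl2, Cxcl3, Cxcl9, Il6 and Csf1), against 0.941% of all 32851 windows. The AP-1 match TGAGTCA stood in 6 of the 37 windows (6 genes) against 4.46% of all windows. The TATA box TATAAA stood in 16 of the 37 (15 genes) against 12.4%. None of the 3 motifs contains another. A match is a description of letters and not a measured binding site. The 200 bases before the start are printed for 3 neighbouring neutrophil chemokines with the NF-kB match, Cxcl1 (chr5:90891045-90891244, plus strand), Cxcl2 (chr5:90903699-90903898, plus strand) and Cxcl3 (chr5:90785901-90786100, plus strand), and for their neighbours without it, Ppbp (chr5:90768318-90768517, plus strand) and Pf4 (chr5:90772235-90772434, plus strand), because these genes of 1 cluster differ in their levels below. Il6 (chr5:30012914-30013113, plus strand) and Csf1 (chr3:107760470-107760669, minus strand) are shown as stromal ligands with the match. Capitals mark the NF-kB match, which begins 71 bases before the start in Cxcl1, 97 in Cxcl2, 73 in Cxcl3, 44 in Il6 and, on the opposite strand, 153 in Csf1.
Cxcl1: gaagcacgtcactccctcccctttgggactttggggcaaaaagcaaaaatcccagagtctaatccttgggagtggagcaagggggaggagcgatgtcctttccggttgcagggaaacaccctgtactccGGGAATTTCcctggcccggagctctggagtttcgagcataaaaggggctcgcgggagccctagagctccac
Cxcl2: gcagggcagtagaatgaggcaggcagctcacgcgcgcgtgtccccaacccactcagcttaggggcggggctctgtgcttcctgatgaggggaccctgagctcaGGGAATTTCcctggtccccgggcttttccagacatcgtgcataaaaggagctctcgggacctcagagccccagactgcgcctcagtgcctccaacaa
Cxcl3: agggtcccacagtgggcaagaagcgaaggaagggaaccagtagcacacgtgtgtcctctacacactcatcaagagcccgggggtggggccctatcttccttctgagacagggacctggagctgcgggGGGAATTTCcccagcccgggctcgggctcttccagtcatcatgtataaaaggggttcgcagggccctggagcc
Ppbp: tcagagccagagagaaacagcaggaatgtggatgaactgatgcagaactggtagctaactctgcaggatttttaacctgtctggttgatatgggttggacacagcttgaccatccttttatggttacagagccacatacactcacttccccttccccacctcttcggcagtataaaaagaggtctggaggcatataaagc
Pf4: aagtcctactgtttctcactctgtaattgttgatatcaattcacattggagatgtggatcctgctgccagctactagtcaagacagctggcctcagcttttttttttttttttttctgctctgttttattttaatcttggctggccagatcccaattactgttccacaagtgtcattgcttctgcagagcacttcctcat
Il6: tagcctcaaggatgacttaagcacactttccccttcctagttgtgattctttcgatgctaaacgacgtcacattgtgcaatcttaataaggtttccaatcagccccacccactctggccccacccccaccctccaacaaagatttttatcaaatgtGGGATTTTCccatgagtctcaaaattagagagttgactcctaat
Csf1: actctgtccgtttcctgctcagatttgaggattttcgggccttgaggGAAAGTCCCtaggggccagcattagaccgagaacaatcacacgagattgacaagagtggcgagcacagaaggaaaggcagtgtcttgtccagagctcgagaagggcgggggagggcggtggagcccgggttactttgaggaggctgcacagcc

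Csf1, Ccl7, Cxcl12, Ccl8 and Il6 were among the ligand genes lower than in ADSCs in all 3 epithelial groups, and Il18 and Cxcl16 were higher in all 3 (heat map of the 44 genes). Differences are between group means of log2(FPKM + 1), a scale that understates the change of low genes, and a gene is called where its limma adjusted p over all 12364 genes was under 0.05. Calls were recomputed under 17 alternative settings, 12 of which left out 1 library. A gene that fell below the filter under a setting was not tested there. This touched Il6 and Cx3cl1 without any ADSC library and the low ligands with the filter at 5 FPKM. Where leaving out a library did this, the gene was also tested with the 12364 genes kept, an alternative chosen after seeing the data. Ranges cover the settings that tested the gene. Where a call is said to be lost without a library, that library alone was left out. Against ADSCs, in vitro iSEPs had 15 of the 29 tested ligand genes called, as were 53.8% of all genes, and of these 4 were higher and 11 lower (32.1% and 21.7% of all genes). In vivo iSEPs had 17 called (47.6%), 4 higher and 13 lower (27.6% and 20.0%). Keratinocytes had 18 called (53.5%), 9 higher and 9 lower (32.8% and 20.7%). The libraries of the 2 groups did not overlap for 19, 18 and 21 of the 29 genes, against 63.7%, 54.2% and 69.5% of all genes. These 3 comparisons share the ADSC libraries. The median difference of the 29 genes was -0.03, -0.42 and 0.28 on the log2 scale, while that of all genes was 0.15, 0.14 and 0.18. With libraries scaled to the same median over genes, the share of higher genes among all those called went from 59.7% to 47.3% for in vitro iSEPs and from 61.4% to 46.8% for keratinocytes, and the higher ligand genes from 4 to 2 and from 9 to 5. The 4 higher calls in the in vitro iSEPs became 2 without ADSC mouse 2 or 3, in vitro iSEP mouse 1 or 2, in vivo iSEP mouse 2 or any keratinocyte library, with Ccl20 not tested without an in vitro iSEP library. The 4 in the in vivo iSEPs became 2 without ADSC mouse 2 or 3 or in vivo iSEP mouse 3 and 7 without in vivo iSEP mouse 2, and the 13 lower calls became 8 without ADSC mouse 1, of which Il6 and Cx3cl1 dropped out as not tested.

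Fewer ligand genes were called among the epithelial groups. Against keratinocytes, in vitro iSEPs had 8 of 29 called (11.3% of all genes), 2 higher and 6 lower (5.22% and 6.12%), and in vivo iSEPs 3 (7.48%), 0 higher and 3 lower (3.41% and 4.08%). In vivo against in vitro iSEPs gave 1 (1.63%), 0 higher and 1 lower (0.679% and 0.946%). At an unadjusted limma p under 0.05, 1 ligand gene was higher in each of the latter comparisons, Il18 and Mif. The libraries did not overlap for 17, 9 and 5 of the 29 genes, against 40.8%, 27.8% and 15.0% of all genes. With the mouse number as a block, the 2 higher calls in the in vitro iSEPs became 1 and the 1 call between the iSEPs became 0. The counts went up without in vivo iSEP mouse 3, to 4 higher in the in vitro iSEPs and 7 lower in the in vivo iSEPs against keratinocytes, and to 4 lower in the in vivo against in vitro iSEPs. The 2 higher calls in the in vitro iSEPs became 1 without ADSC mouse 2, any in vitro iSEP library or any keratinocyte library, and the 6 lower calls became 3 without in vitro iSEP mouse 1 or 2, 1 without in vitro iSEP mouse 3 or keratinocyte mouse 1 or 2, and 0 without keratinocyte mouse 3. For in vivo iSEPs against keratinocytes the 3 lower calls became 1 without ADSC mouse 2, in vivo iSEP mouse 2 or any keratinocyte library, and the higher calls became 3 without in vivo iSEP mouse 1 and 1 without in vitro iSEP mouse 2 or keratinocyte mouse 1. The 1 call between the iSEPs, Il18, was lost without any ADSC library, in vitro iSEP mouse 1 or 3, any in vivo iSEP library or keratinocyte mouse 2 or 3. Without ADSC mouse 1 or in vivo iSEP mouse 3 other ligand genes were called in its place. Counts over all genes moved too. For in vitro iSEPs against keratinocytes 1403 became 2091 without in vivo iSEP mouse 3 and 447 without keratinocyte mouse 2. For in vivo iSEPs against keratinocytes 925 became 1669 without in vivo iSEP mouse 1 and 314 without keratinocyte mouse 2. Between the iSEPs 201 became 348 without in vivo iSEP mouse 3 and 53 without in vitro iSEP mouse 3. Median scaling moved the share of higher genes among all those called from 45.5% to 56.5% for in vivo iSEPs against keratinocytes, with 0 ligand genes higher under both.

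**Figure D1:**
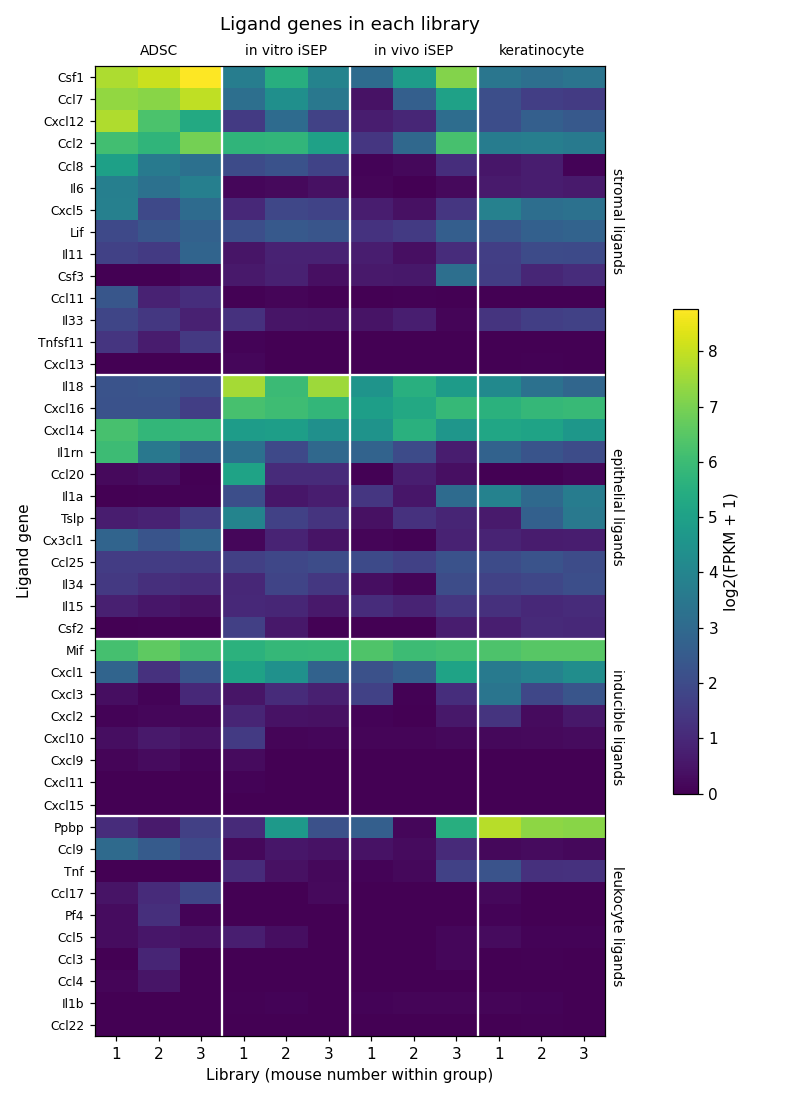
Level of each of the 44 ligand genes (rows, grouped by set and ordered by their highest group mean) in the 12 libraries (columns, mice 1 to 3 in each group), as log2(FPKM + 1) on a colour scale. The leading stromal ligands are bright in the 3 ADSC columns, Il18 in the iSEP columns and Ppbp in the 3 keratinocyte columns. Cxcl16 is bright in both the iSEP and the keratinocyte columns.

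The stromal and the epithelial ligands were counted apart. Both sets were chosen with earlier results of these data known. Il6 and Cx3cl1 passed the filter through ADSCs alone and Ccl20 through the in vitro iSEPs alone. The set counts are therefore descriptions, and the shares of all genes beside them are no test of the sets. Of the 11 tested stromal ligands, 7 were lower than in ADSCs in the in vitro iSEPs, 9 in the in vivo iSEPs and 6 in keratinocytes (21.7%, 20.0% and 20.7% of all genes), and 0 were higher (at an unadjusted limma p under 0.05, 1 was, Csf3 in the in vivo iSEPs), with median differences of -1.39, -2.74 and -2.58. Of the 12 epithelial ligands, 3 were higher and 2 lower in the in vitro iSEPs, 4 and 3 in the in vivo iSEPs and 6 and 2 in keratinocytes (32.1%, 27.6% and 32.8% of all genes were higher), with median differences of 0.52, 0.20 and 0.60. Without ADSC mouse 2 or 3 the higher epithelial ligands became 2 in the in vivo iSEPs and 3 in keratinocytes; they also became 2 without in vivo iSEP mouse 3 and 3 without keratinocyte mouse 2, and with median scaling 2 in keratinocytes. The summed level of the stromal set was 574 to 884 FPKM in ADSCs, 68.8 to 139 in the in vitro iSEPs and 48.5 to 52.3 in keratinocytes. In the in vivo iSEPs it was 13.6, 44.7 and 270, with mouse 3 far above the others. The summed level of the epithelial set was 78.0 to 156 FPKM in ADSCs, 171 to 356 in the in vitro iSEPs, 85.2 to 138 in the in vivo iSEPs and 124 to 128 in keratinocytes. Different genes led these sums. Cxcl14 made up 47.0%, 67.6% and 71.6% in ADSC mice 1, 2 and 3, and Il1rn added 64.2 FPKM in ADSC mouse 1. Il18 made up 53.4% and 66.4% in in vitro iSEP mice 1 and 3, and Cxcl16 36.7% to 47.4% in keratinocytes.

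Csf1, the macrophage growth factor, was the most abundant ligand gene per length in 2 of the 3 ADSC libraries (chr3:107741048-107760469). Its level was 205, 266 and 435 FPKM in ADSC mice 1, 2 and 3, 12, 44.7 and 14.1 in the in vitro iSEPs, 7.29, 27.9 and 139 in the in vivo iSEPs, and 9.97, 8.21 and 9.46 in keratinocytes. All 3 ADSC libraries were above every other library, and in vivo iSEP mouse 3 came closest to them. Csf1 fell by 3.79 ± 0.82 (SE) on the log2 scale in the in vitro iSEPs (adjusted p = 0.00243), by 3.16 in the in vivo iSEPs (adjusted p = 0.00823) and was lower in keratinocytes (-4.82, adjusted p = 0.000494). In linear means ADSCs were 12.8-fold, 5.19-fold and 32.8-fold higher. The first of these folds was 23.1 without in vitro iSEP mouse 2 and the second 17.2 without in vivo iSEP mouse 3, where the log2 difference was -4.22.

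The CC chemokines Ccl2, Ccl7 and Ccl8 lie next to each other with the eosinophil chemokine Ccl11 within 81.2 kb (chr11:82035577-82116799). Ccl7 was at 163, 148 and 244 FPKM in ADSCs, 8.24, 19.7 and 10.5 in the in vitro iSEPs, 0.359, 5.37 and 31.2 in the in vivo iSEPs and 3.26, 2.09 and 1.88 in keratinocytes. Ccl8 was at 30.6, 10.8 and 8.35 FPKM in ADSCs, 3.00, 3.63 and 2.39 in the in vitro iSEPs, 0.0700, 0.131 and 1.24 in the in vivo iSEPs and 0.459, 0.615 and 0.0660 in keratinocytes. For both genes the ADSC libraries lay above all others. Ccl7 was called lower in all 3 groups, with log2 differences of -3.81 ± 0.85 (in vitro iSEPs), -4.80 (in vivo iSEPs) and -5.76 (keratinocytes; adjusted p = 0.00287, 0.00071 and 0.000168). Without in vivo iSEP mouse 3 the Ccl7 difference in that group was -5.95. Ccl8 was also lower in all 3, with -1.93 ± 0.42, -3.44 and -3.48 in the same order (adjusted p = 0.00254, 4.73e-05 and 3.83e-05).

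Unlike its neighbours, Ccl2 was not called against ADSCs in the in vitro iSEPs. Its level was 68.6, 52.4 and 121 FPKM in ADSCs, 52.4, 54.1 and 31.4 in the in vitro iSEPs, 1.60, 6.85 and 73.8 in the in vivo iSEPs and 11.8, 12.4 and 11.4 in keratinocytes. The ADSC and in vitro iSEP libraries overlapped, in vivo iSEP mouse 3 lay within the ADSC range, and the keratinocytes were close together below it. The difference from ADSCs was -0.75 ± 0.91 (SE) in the in vitro iSEPs and was not called (adjusted p = 0.507), while Ccl2 was called lower in the in vivo iSEPs (-2.74, adjusted p = 0.0275) and keratinocytes (-2.58, adjusted p = 0.0324). The call in the in vivo iSEPs was lost without ADSC mouse 1 or 3 or in vivo iSEP mouse 1 or 2 (adjusted p = 0.0603 to 0.093, range over the 17 alternatives 2.94e-05 to 0.093), and without in vivo iSEP mouse 1 or 3 the difference was -1.67 or -4.09. The call in keratinocytes was lost with no filter on low genes (adjusted p = 0.0546) and without any of the 3 ADSC or 3 keratinocyte libraries (0.0506 to 0.104, range over the alternatives 0.000279 to 0.104). Ccl11 reached 4.05, 0.797 and 1.24 FPKM in ADSCs, at most 0.0940 in iSEPs, and was listed at 0 in all 3 keratinocyte libraries; it did not pass the filter.

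Cxcl12, which holds Cxcr4-bearing cells in their niche (chr6:117168535-117175069), was at 208, 76.2 and 39.6 FPKM in ADSCs. In the other groups it was at 1.79, 7.44 and 2.35 FPKM (in vitro iSEPs), 0.609, 0.899 and 7.70 (in vivo iSEPs) and 3.21, 5.30 and 4.40 (keratinocytes). The ADSC libraries differed widely among themselves and still lay above all 9 others. Cxcl12 was lower in all 3, with log2 differences of -4.34 ± 0.71, -4.86 and -4.05 in that order (adjusted p = 0.000366, 0.000178 and 0.00059).

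Il6, the inflammatory and acute-phase cytokine whose promoter is printed above (chr5:30013114-30019975), was at 12.9, 8.56 and 12.8 FPKM in ADSCs. It was at 0.103, 0.177 and 0.320 FPKM in the in vitro iSEPs, 0.0940, 0 and 0.166 in the in vivo iSEPs and 0.556, 0.610 and 0.557 in keratinocytes. The 0.166 FPKM of in vivo iSEP mouse 3 stands for 6 reads. Il6 fell by 3.36 ± 0.16 and 3.50 in the iSEPs on the log2 scale (adjusted p = 2.63e-08 and 1.88e-08) and was lower in keratinocytes (-2.96, adjusted p = 5.99e-08). Il6 was tested because it is high in ADSCs. The test with no filter gave adjusted p = 1.17e-07, 8.31e-08 and 2.55e-07. Il6 was not called against keratinocytes in the in vivo iSEPs (-0.54, adjusted p = 0.0699), but was without ADSC mouse 2 (0.032 with the genes kept). Il11, a related cytokine, was at 3.41 ± 2.40 FPKM in ADSCs, 0.658 ± 0.221 in the in vitro iSEPs, 0.689 ± 0.440 in the in vivo iSEPs and 2.66 ± 0.494 in keratinocytes (SD, n = 3), fell in both kinds of iSEPs (-1.29 each, adjusted p = 0.00549 and 0.00632) and was not called in keratinocytes (-0.15, adjusted p = 0.72).

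Lif, the stem cell and inflammation cytokine of the same receptor family, was at 2.83, 3.92 and 5.55 FPKM in ADSCs, 3.31, 4.43 and 3.95 in the in vitro iSEPs, 1.44, 1.78 and 5.15 in the in vivo iSEPs and 4, 5.44 and 5.92 in keratinocytes. The groups overlapped, and Lif was called in none of the 6 comparisons by limma (1 at an unadjusted p under 0.05). It was called lower without in vivo iSEP mouse 3 in the in vivo iSEPs than in ADSCs (-0.94, adjusted p = 0.00635, range over the alternatives up to 0.53) and than in keratinocytes (-1.22, adjusted p = 0.00672, range up to 0.452).

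The neutrophil chemokine Cxcl5 was at 13.2, 2.79 and 7.40 FPKM in ADSCs, 0.992, 2.67 and 2.42 in the in vitro iSEPs, 0.626, 0.320 and 1.64 in the in vivo iSEPs and 13.4, 7.96 and 8.60 in keratinocytes. Both kinds of iSEPs lay below every ADSC and keratinocyte library. It fell by 1.39 ± 0.45 in the in vitro iSEPs (adjusted p = 0.0217) and by 2.11 in the in vivo iSEPs (adjusted p = 0.00245) against ADSCs, and keratinocytes were not called (0.49, adjusted p = 0.384). The call in the in vitro iSEPs was lost without ADSC mouse 1 or 3 or in vitro iSEP mouse 1 (adjusted p = 0.0631 to 0.0911, range over the alternatives 0.00276 to 0.0911).

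The other stromal ligands were low. The alarmin Il33 was at 0.731 to 2.54 FPKM in ADSCs, 0.380 to 1.38 in the in vitro iSEPs, 0.0860 to 0.649 in the in vivo iSEPs and 1.47 to 2.22 in keratinocytes, and it was called lower than in ADSCs in the in vivo iSEPs (-0.92, adjusted p = 0.022). That call was lost without ADSC mouse 1 or 2 or in vivo iSEP mouse 3 (adjusted p = 0.0657 to 0.103, range over the alternatives 0.00817 to 0.103). The neutrophil growth factor Csf3 was at 0.106 FPKM or less in ADSCs, which is at most 4 reads, at 0.268 to 0.739 in the in vitro iSEPs, at 0.918 to 2.03 in keratinocytes and at 0.526, 0.463 and 8.24 in the in vivo iSEPs, where mouse 3 stood apart. Csf3 was not called against ADSCs (adjusted p = 0.455, 0.0604 and 0.104), but with a pseudocount of 0.1 FPKM it was called higher in the in vivo iSEPs and keratinocytes (adjusted p = 0.00733 and 0.00715) and without in vivo iSEP mouse 1 or 2 in the in vivo iSEPs (0.0269 and 0.0248; range over the alternatives up to 0.133 and 0.246). Without in vivo iSEP mouse 3, with the genes kept, Csf3 was called higher than in ADSCs in keratinocytes (1.16, adjusted p = 0.000348) and in vitro iSEPs (0.52, 0.033), and lower in the in vitro iSEPs than in keratinocytes (-0.63, 0.041). The osteoclast factor Tnfsf11 was at 0.596 to 1.74 FPKM in ADSCs and at 0.0520 or less elsewhere, and the B-cell chemokine Cxcl13 never passed 0.101 FPKM; neither was tested.

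**Figure D2:**
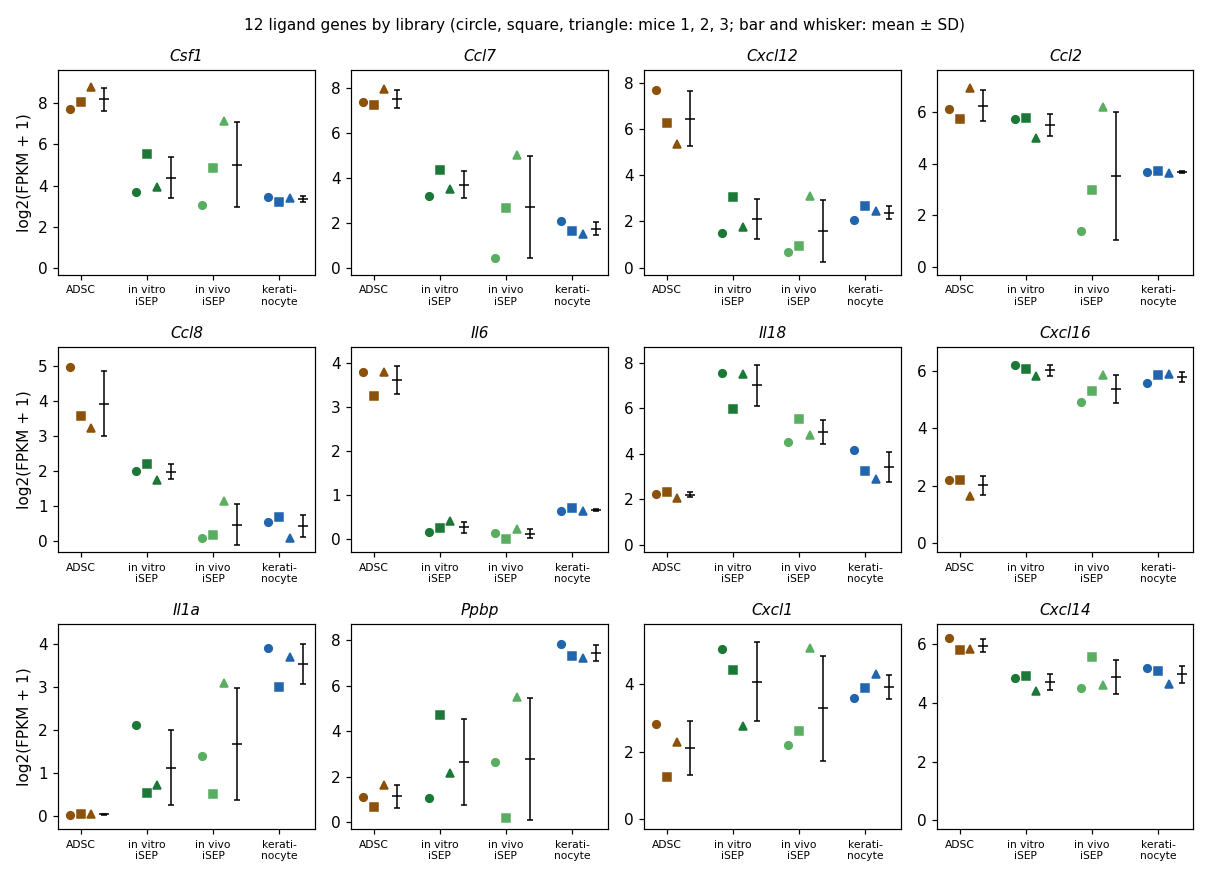
Level of 12 ligand genes in each library as log2(FPKM + 1), with 1 point per library (circle, square and triangle for mice 1, 2 and 3) and the group mean ± SD (n = 3) as a bar with whiskers. Csf1, Ccl7, Cxcl12, Ccl8 and Il6 are highest in all 3 ADSC libraries, Cxcl16 is high in all 9 epithelial libraries, and the triangle of in vivo iSEP mouse 3 lies apart for Csf1, Ccl2, Ppbp and Il1a.

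The residual level of the 7 stromal ligands with an ADSC mean of 5 FPKM or more was set beside that of stromal marker genes, each as percent of its own ADSC mean. In the in vitro iSEPs Ccl2 kept 65.0%, 67.1% and 38.9% of the ADSC mean and Ccl8 kept 18.1%, 21.9% and 14.4%. Cxcl5 was at 12.7%, 34.3% and 31.1%, while Csf1, Ccl7, Cxcl12 and Il6 were between 0.901% and 14.8%. In the same 3 libraries the mesenchymal filament gene Vim was at 3.26%, 11.4% and 8.92%, the receptor gene Pdgfra at 5.81%, 15.4% and 10.4%, and the collagen gene Col1a1 at 0.266%, 0.919% and 0.705%. So Ccl2 lay above each of these 3 markers in each of these libraries. In the in vivo iSEPs mouse 3 had the highest value of all 3 libraries for Ccl2 (91.5% against 1.99% and 8.49%), Csf1 (46.1% against 2.41% and 9.24%) and Ccl7 (16.8% against 0.194% and 2.90%). Its markers were also the highest of the 3, with Vim at 11.4% against 2.05% and 3.63% and Pdgfra at 4.36% against 0.514% and 0.674%. The part of remaining stromal cells in these ligand values was not tested.

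**Figure D3:**
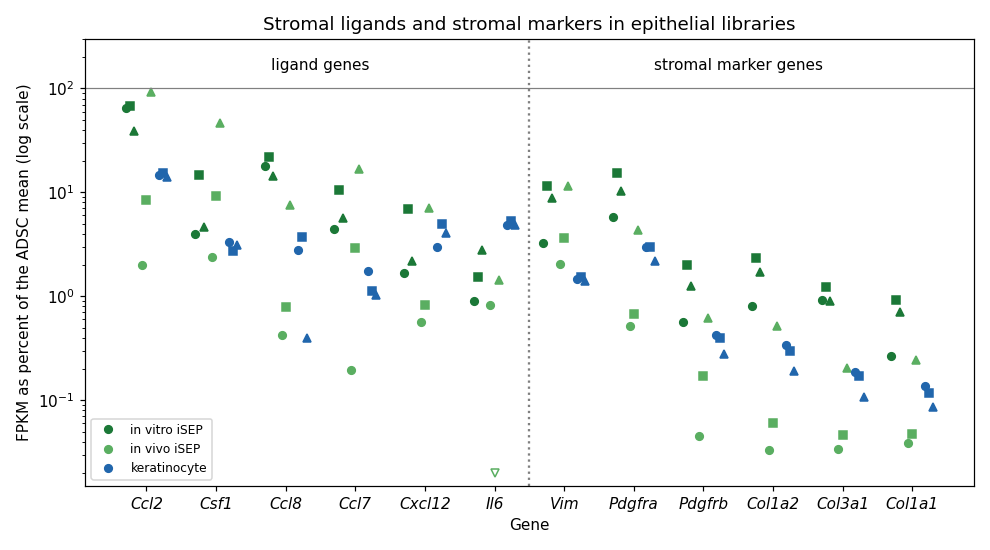
Level of 6 stromal ligand genes (left) and 6 stromal marker genes (right) in each epithelial library, as percent of the gene's ADSC mean on a log axis; 1 point per library, circle, square and triangle for mice 1, 2 and 3, an open downward triangle at the lower edge for Il6 listed at 0, and a grey line at 100%. Ccl2 in the in vitro iSEPs (38.9% to 67.1%) and in in vivo iSEP mouse 3 (91.5%) lies nearest the line, and the collagen genes lie lowest.

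Il18, an inflammasome-processed cytokine that keratinocytes store as a precursor (chr9:50565368-50581837), was called higher than in ADSCs in all 3 epithelial groups. Its level was 3.76, 4.01 and 3.21 FPKM in ADSCs, 190, 62.3 and 180 in the in vitro iSEPs, 22.2, 45.2 and 27.1 in the in vivo iSEPs and 17.0, 8.58 and 6.47 in keratinocytes. The 4 groups did not overlap, with in vitro iSEPs on top, then in vivo iSEPs, then keratinocytes, then ADSCs. Il18 rose by 4.80 ± 0.44 on the log2 scale in the in vitro iSEPs (39.4-fold in linear means, adjusted p = 4.18e-06) and by 2.74 in the in vivo iSEPs (8.60-fold, adjusted p = 0.000342). In keratinocytes it was 1.23 higher (2.92-fold, adjusted p = 0.0344), a call that was lost with no filter (0.056), with median scaling (0.0763) and without any ADSC library or keratinocyte mouse 1 or 2 (adjusted p = 0.0576 to 0.135, range over the alternatives 0.00861 to 0.135).

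In vitro iSEPs also had 13.5-fold more Il18 than keratinocytes (log2 difference 3.58, adjusted p = 0.000943, at most 0.00829 under the 17 alternatives). In vivo iSEPs were not called against keratinocytes (1.52, adjusted p = 0.0614). Without in vitro iSEP mouse 2, in vivo iSEP mouse 1 or keratinocyte mouse 1 that difference was called (adjusted p = 0.0191, 0.0424 and 0.0428, range over the alternatives 0.0191 to 0.243). In vitro iSEPs had 4.58-fold more Il18 than in vivo iSEPs (in vivo minus in vitro -2.06, adjusted p = 0.0458), but the call was lost under 14 of the 17 alternatives. It was lost with the mouse number as a block (adjusted p = 0.0755) and held only with the filter at 5 FPKM and without in vitro iSEP mouse 2 or keratinocyte mouse 1 (range over the alternatives 0.00895 to 0.181).

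Cxcl16, a membrane-bound chemokine that is shed by proteases and draws Cxcr6-bearing T cells (chr11:70454234-70459984), was higher than in ADSCs in all 3 epithelial groups. It was at 3.57, 3.60 and 2.11 FPKM in ADSCs, 72.7, 65.5 and 55.6 in the in vitro iSEPs, 28.9, 38.0 and 57.4 in the in vivo iSEPs and 47.0, 56.5 and 58.9 in keratinocytes. Every epithelial library was above every ADSC library, and the 3 epithelial groups overlapped. The differences from ADSCs were 4.02 ± 0.23, 3.34 and 3.77 (20.9-fold, 13.4-fold and 17.5-fold, adjusted p = 1.21e-07, 5.59e-07 and 1.83e-07). Against keratinocytes in vitro iSEPs were not called (0.25, 95% interval -0.27 to 0.77, adjusted p = 0.529), nor were in vivo iSEPs (-0.42, adjusted p = 0.327).

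Cxcl14, a chemokine made by normal skin epithelium and also by fibroblasts (chr13:56288643-56296551), was lower in all 3 epithelial groups. It was at 73.5, 55.5 and 55.8 FPKM in ADSCs, 27.6, 29.2 and 20.1 in the in vitro iSEPs, 21.7, 46.4 and 23.5 in the in vivo iSEPs and 35.6, 33.2 and 24.2 in keratinocytes. The ADSC libraries were above all others, with in vivo iSEP mouse 2 the nearest. The differences were -1.24 ± 0.27, -1.06 and -0.98 (adjusted p = 0.00255, 0.0073 and 0.0103). Against keratinocytes the 95% interval of the difference was -0.86 to 0.33 in the in vitro iSEPs and -0.68 to 0.51 in the in vivo iSEPs, and neither was called.

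Il1a, the interleukin-1 alarmin that keratinocytes hold in reserve (chr2:129299610-129309972), was at 0.0160, 0.0350 and 0.0360 FPKM in ADSCs, which is 1 or 2 reads. It was at 3.35, 0.442 and 0.636 FPKM in the in vitro iSEPs, 1.63, 0.437 and 7.47 in the in vivo iSEPs and 13.9, 7.02 and 11.9 in keratinocytes. All 9 epithelial libraries lay above the ADSCs, and the keratinocytes were the highest except that in vivo iSEP mouse 3 passed keratinocyte mouse 2. Il1a was 3.49 higher in keratinocytes on the log2 scale (adjusted p = 0.000414) and 1.63 higher in the in vivo iSEPs (adjusted p = 0.0386). The latter call was lost with no filter (0.0647), with median scaling (0.0558), and without any ADSC library, in vivo iSEP mouse 1 or 3 or keratinocyte mouse 3 (adjusted p = 0.0517 to 0.114, range over the alternatives 0.00337 to 0.114); without in vivo iSEP mouse 3 the difference was 0.92. In the in vitro iSEPs the difference of 1.08 ± 0.58 was not called (adjusted p = 0.14), though it was with a pseudocount of 0.1 FPKM (adjusted p = 0.011) or without in vivo iSEP mouse 3 (0.0408, range over the alternatives 0.011 to 0.436).

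Against keratinocytes Il1a was lower in the in vitro iSEPs (-2.41, adjusted p = 0.0237), a call lost without in vitro iSEP mouse 2 or 3 or any keratinocyte library (adjusted p = 0.0534 to 0.0853, range over the alternatives 0.0034 to 0.0853). In vivo iSEPs were not called against keratinocytes (-1.87, adjusted p = 0.0794), and without in vivo iSEP mouse 3 they were (-2.57, adjusted p = 0.00456, range over the alternatives up to 0.299). Its neighbour Il1b, the inflammasome-processed member of the family, did not pass 0.0990 FPKM or 4 reads in any library.

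Il1rn, which encodes the natural antagonist of the interleukin-1 receptor (chr2:24345291-24351491), was at 64.2, 10.5 and 5.45 FPKM in ADSCs, 8.34, 2.84 and 6.73 in the in vitro iSEPs, 5.89, 3.05 and 0.614 in the in vivo iSEPs and 5.73, 3.84 and 3.10 in keratinocytes. ADSC mouse 1 stood far above all others, and the groups overlapped. Il1rn was called lower in the in vivo iSEPs (-2.25, adjusted p = 0.0315), and the call was lost with no filter (0.0544) and without ADSC mouse 1 or in vivo iSEP mouse 2 or 3 (0.0584 to 0.107, range over the alternatives 0.00773 to 0.107). Without ADSC mouse 1 the difference was -1.27. Keratinocytes were not called (-1.73, adjusted p = 0.079), but were with the mouse number as a block (adjusted p = 0.024) or without ADSC mouse 3 (0.0246, range over the alternatives 0.024 to 0.314). In vitro iSEPs were not called (-1.38, adjusted p = 0.152), except without ADSC mouse 3 (0.0466, range over the alternatives up to 0.596).

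**Figure D4:**
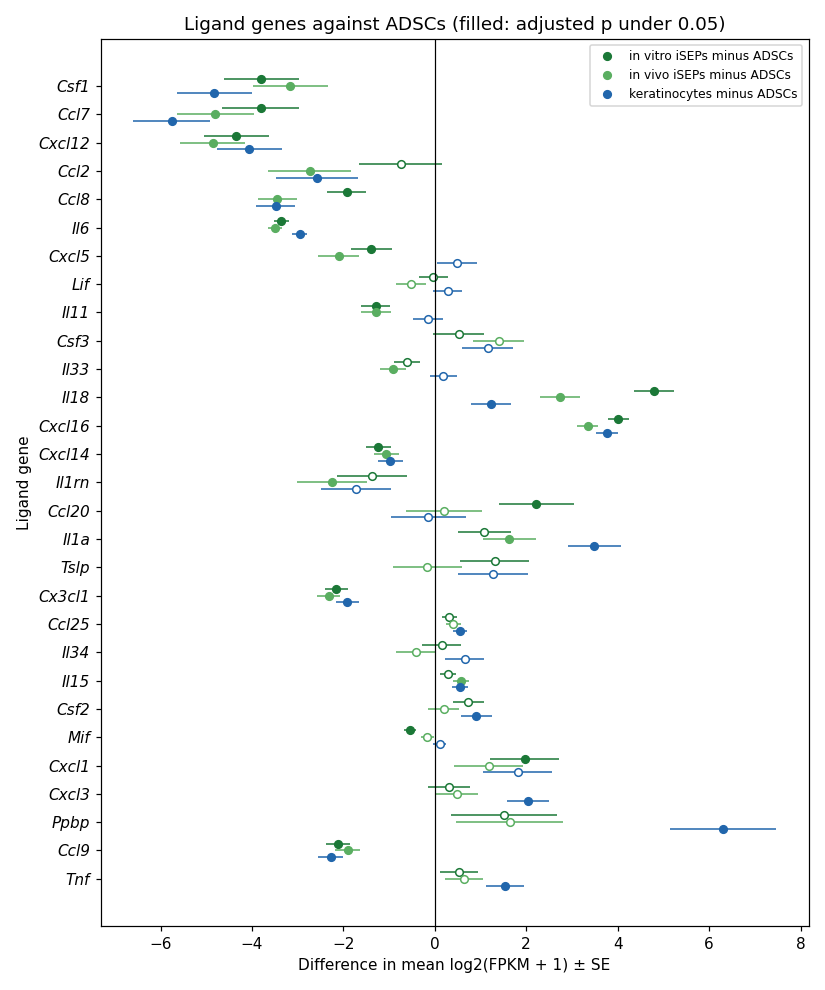
Difference in mean log2(FPKM + 1) from ADSCs for the 29 tested ligand genes, ± SE, in both kinds of iSEPs and in keratinocytes (n = 3 libraries a group); filled points have a limma adjusted p under 0.05. Csf1, Ccl7, Cxcl12, Ccl8 and Il6 are filled on the lower side in all 3 comparisons and Il18 and Cxcl16 on the higher side, and Ppbp in keratinocytes lies farthest to the right at 6.31.

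Ccl20 and Tslp each had 1 in vitro iSEP library far above the others. Ccl20, which draws Ccr6-bearing dendritic and T cells (chr1:83116766-83119167), was at 32.6 FPKM in in vitro iSEP mouse 1 and at 1.09 and 1.11 in the other in vitro iSEPs, at 0.0450 to 0.664 in the in vivo iSEPs, at 0.257 or less in ADSCs and at 0.0830 or less in keratinocytes. The in vitro iSEPs lay above all other libraries. The call against ADSCs (2.22 ± 0.82, adjusted p = 0.0402) was lost with no filter (0.0663), with median scaling (0.0591) and without any ADSC library, any keratinocyte library or in vivo iSEP mouse 2 (adjusted p = 0.0503 to 0.099, range over the alternatives 0.00354 to 0.099). Ccl20 was tested because it is high in the in vitro iSEPs. The difference was 0.89 without in vitro iSEP mouse 1, with the genes kept. In vitro iSEPs were not called against keratinocytes (2.37, adjusted p = 0.089), but were without in vitro iSEP mouse 1 or 2 with the genes kept (0.012 and 0.0498). Tslp, the epithelial cytokine of allergic inflammation, was at 14.6, 2.23 and 1.47 FPKM in the in vitro iSEPs and 0.560, 5.40 and 10.6 in keratinocytes, against 0.613, 0.786 and 1.84 in ADSCs and 0.316, 1.38 and 0.864 in the in vivo iSEPs. The Tslp groups overlapped and no comparison was called by limma (0 at an unadjusted p under 0.05); without keratinocyte mouse 1 keratinocytes were higher than ADSCs (2.10, adjusted p = 0.0278, range over the alternatives up to 0.529).

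Cx3cl1, a membrane-anchored chemokine that holds monocytes and T cells (chr8:94772180-94782426), was lower in all epithelial cultures. It was at 6.17, 3.85 and 6.19 FPKM in ADSCs, 0.124, 0.820 and 0.372 in the in vitro iSEPs, 0.0790, 0.0320 and 0.800 in the in vivo iSEPs and 0.814, 0.584 and 0.614 in keratinocytes. The ADSC libraries lay above all others, and the differences were -2.16 ± 0.25, -2.32 and -1.92 (adjusted p = 3.04e-05, 1.96e-05 and 7.49e-05). Cx3cl1 was tested because it is high in ADSCs. With no filter the adjusted p was 9.18e-05, 6.28e-05 and 0.000203.

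The 4 remaining epithelial ligands stayed below 4 FPKM. Ccl25, best known as a chemokine of thymus and gut, was at 1.92 ± 0.0483 FPKM in ADSCs and 3.27 ± 0.386 in keratinocytes (SD, n = 3) and was called there (0.55, adjusted p = 0.0129), a call lost with median scaling (0.0831) and without keratinocyte mouse 2 (0.0582, range over the alternatives 0.00755 to 0.0831). Il15, which sustains natural killer and T cells, was at 0.479 ± 0.196 FPKM in ADSCs, 1.21 ± 0.403 in the in vivo iSEPs and 1.16 ± 0.158 in keratinocytes and was called higher in both (0.57 and 0.55, adjusted p = 0.0189 and 0.0202). The Il15 call was lost in the in vivo iSEPs without ADSC mouse 2 or 3 or in vivo iSEP mouse 3 (adjusted p = 0.0633 to 0.0955, range over the alternatives 0.0121 to 0.0955). In keratinocytes it was lost with median scaling (0.1) and without ADSC mouse 2 or 3 or keratinocyte mouse 1 (adjusted p = 0.0693 to 0.0979, range over the alternatives 0.0128 to 0.1).

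Csf2, the granulocyte and macrophage growth factor, had 0 or 1 read in each ADSC library and 0.930 ± 0.219 FPKM in keratinocytes (SD, n = 3), where it was called (0.91, adjusted p = 0.0415). The Csf2 call was lost with the mouse number as a block (0.0638), with no filter (0.0588), with median scaling (0.114), and without any ADSC library, in vitro iSEP mouse 2 or any keratinocyte library (adjusted p = 0.0505 to 0.106, range over the alternatives 0.00463 to 0.114). Il34, the second ligand of the Csf1 receptor and a factor for Langerhans cells, was at 0.0760 to 3.28 FPKM over all libraries and was not called in any comparison by limma (1 at an unadjusted p under 0.05). In vivo iSEP mouse 3 had 3.08 FPKM of Il34 against 0.247 and 0.0760, and without it in vivo iSEPs were called lower than ADSCs, keratinocytes and in vitro iSEPs (adjusted p = 0.00456, 0.00143 and 0.0284, range over the alternatives up to 0.917, 0.487 and 0.891).

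The CXC genes on chromosome 5 form the largest group of neighbours among the 44, with Cxcl5, Ppbp, Pf4, Cxcl3, Cxcl15, Cxcl1 and Cxcl2 in 147 kb (chr5:90759298-90905938). Ppbp, whose product is best known from platelet granules, was the most abundant ligand gene per length in all 3 keratinocyte libraries, at 227, 156 and 147 FPKM and 33.9% to 44.2% of the summed ligand level. It was at 1.17, 0.569 and 2.13 FPKM in ADSCs, 1.09, 25.2 and 3.48 in the in vitro iSEPs and 5.23, 0.123 and 44.6 in the in vivo iSEPs. The keratinocytes lay above all other libraries, and the iSEP libraries were spread widely, with in vitro mouse 2 and in vivo mouse 3 the highest. Keratinocytes had 137-fold more Ppbp than ADSCs in linear means (log2 difference 6.31, adjusted p = 0.00086), 17.8-fold more than in vitro iSEPs and 10.6-fold more than in vivo iSEPs. The latter folds rest on single libraries, with 77.3 without in vitro iSEP mouse 2 and 65.9 without in vivo iSEP mouse 3.

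Ppbp was set beside 4 other platelet and megakaryocyte genes. The platelet glycoprotein gene Gp9 was listed at 0 in all 12 libraries and Gp1ba in 11, and Ppbp made up 99.7% of the summed level of the 5 genes in keratinocytes. The platelet integrin gene Itga2b was at 0.390 to 1.71 FPKM over the 12 libraries. It was the highest of the 5 in in vitro iSEP mouse 1 and in vivo iSEP mouse 2. Itga2b was not called in any comparison by limma (1 at an unadjusted p under 0.05). Pf4, the neighbour that platelets store with it, reached 1.28 FPKM (22 reads) in ADSC mouse 2, the library with the leukocyte markers, and at most 0.215 FPKM elsewhere.

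Against the keratinocytes, Ppbp was lower in the in vitro iSEPs (-4.80, adjusted p = 0.0243) and in the in vivo iSEPs (-4.67, adjusted p = 0.035), but not called in either against ADSCs (adjusted p = 0.297 and 0.274). The first of these calls was lost with a pseudocount of 0.1 FPKM (0.0595) and without in vitro iSEP mouse 1 or 3 or any keratinocyte library (adjusted p = 0.0712 to 0.0807, range over the alternatives 0.0044 to 0.0807). The call in the in vivo iSEPs was lost with the mouse number as a block (0.0546), with a pseudocount of 0.1 FPKM (0.062), with no filter (0.0622), and without any keratinocyte library, ADSC mouse 2 or in vivo iSEP mouse 1 or 2 (adjusted p = 0.0503 to 0.122, range over the alternatives 0.00241 to 0.122). Without in vivo iSEP mouse 2, Ppbp was called higher in the in vivo iSEPs than in ADSCs (2.94, adjusted p = 0.0377, range over the alternatives up to 0.831).

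Cxcl1 (chr5:90891245-90893115) is the neutrophil chemokine with the NF-kB match nearest the start among those of these neighbours that had a promoter window. It was at 6.05, 1.37 and 3.87 FPKM in ADSCs and 32.1, 20.5 and 5.81 in the in vitro iSEPs. In the in vivo iSEPs Cxcl1 was at 3.55, 5.08 and 32.9 FPKM and in keratinocytes at 11, 13.8 and 18.8. The keratinocytes lay above the ADSCs, while both iSEP groups overlapped them. In vitro iSEPs were called higher (1.97 ± 0.76, adjusted p = 0.0466). The call was lost with the mouse number as a block (0.0665), with no filter (0.076), with median scaling (0.0701), and without ADSC mouse 2 or 3, in vitro iSEP mouse 1 or 2, in vivo iSEP mouse 2 or any keratinocyte library (adjusted p = 0.0513 to 0.161, range over the alternatives 0.01 to 0.161). Keratinocytes were not called against ADSCs (1.81, adjusted p = 0.064), but were without in vitro iSEP mouse 3 or in vivo iSEP mouse 1 or 3 (0.0154 to 0.0496, range over the alternatives 0.0154 to 0.21).

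Cxcl3 was at 9.54, 2.63 and 3.94 FPKM in keratinocytes and below them in the others, at 0.248, 0.0670 and 1.03 in ADSCs, 0.424, 1.12 and 0.717 in the in vitro iSEPs and 2.22, 0.0330 and 1.24 in the in vivo iSEPs. It was higher in keratinocytes than in ADSCs (2.04 ± 0.46, adjusted p = 0.00316) and lower in the in vitro iSEPs than in keratinocytes (-1.73, adjusted p = 0.0362). The latter call was lost with a pseudocount of 0.1 FPKM (0.124), with no filter (0.0622) and without any in vitro iSEP library or keratinocyte mouse 1 or 3 (adjusted p = 0.0535 to 0.121, range over the alternatives 0.019 to 0.124). Cxcl2 never passed 1.51 FPKM, reached in keratinocyte mouse 1, and was not tested. Cxcl15, a lung chemokine, had 1 read in 1 ADSC library and none elsewhere. Cxcl1, Cxcl2 and Cxcl3 differed widely in level, and in keratinocytes Ppbp was the highest of the 7 neighbours. No promoter window was at hand for Cxcl5. The part of the NF-kB match in these levels was not tested.

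**Figure D5:**
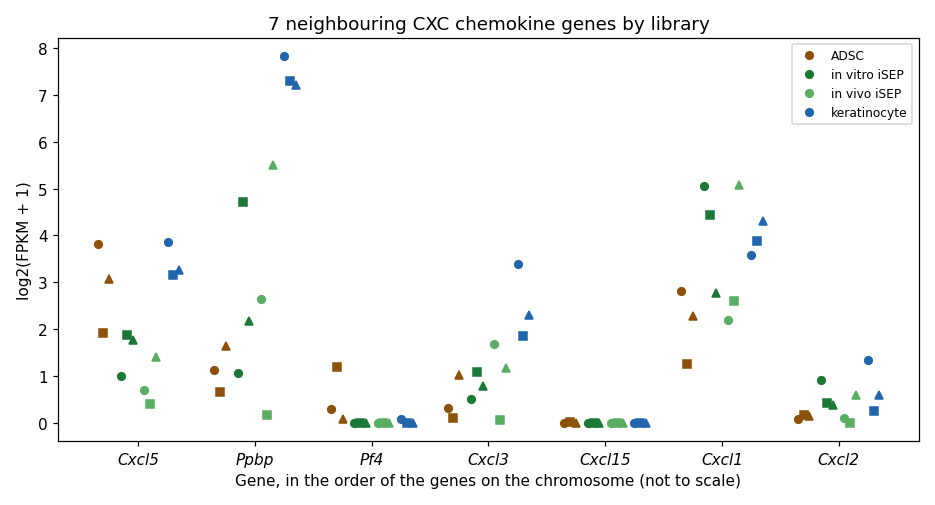
Level of the 7 neighbouring CXC chemokine genes in each library as log2(FPKM + 1), in their order on the chromosome and not to scale; 1 point per library, coloured by group, with circle, square and triangle for mice 1, 2 and 3. Ppbp in keratinocytes (147 to 227 FPKM) stands above every other value, Cxcl5 is higher in ADSCs and keratinocytes than in iSEPs, and Pf4, Cxcl15 and Cxcl2 lie near 0.

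Ligands best known from leukocytes were mostly near 0. The macrophage chemokines Ccl3 and Ccl4 reached 0.867 and 0.416 FPKM, both in ADSC mouse 2, and the T-cell chemokine Ccl5 0.667 at most. The dendritic cell chemokines Ccl17 and Ccl22 reached 2.53 FPKM in ADSC mouse 3 and 0.0380 in keratinocyte mouse 2. The interferon-induced chemokines Cxcl9, Cxcl10 and Cxcl11 reached 0.2, 1.78 and 0.0490 FPKM, and Cxcl10 passed 1 FPKM only in in vitro iSEP mouse 1. None of these 8 genes passed the filter.

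Ccl9 and Tnf were the tested members of this set besides Ppbp. Ccl9, a myeloid cell chemokine that lies near Ccl3, Ccl4 and Ccl5 on chromosome 11, was at 7.12, 4.73 and 2.86 FPKM in ADSCs, 0.130 to 0.445 in the in vitro iSEPs, 0.209 to 1.08 in the in vivo iSEPs and 0.144 to 0.196 in keratinocytes. The ADSC libraries lay above all others, and ADSC mouse 2 with its leukocyte markers had the middle value. Ccl9 was lower in all 3 groups (-2.12 ± 0.27, -1.91 and -2.28, adjusted p = 4.99e-05, 0.000126 and 2.81e-05). Tnf had 1 read in each ADSC library and was at 3.69, 1.34 and 1.37 FPKM in keratinocytes, where it was called higher (1.54 ± 0.42, adjusted p = 0.00933). Tnf was at 1.09, 0.325 and 0.147 FPKM in the in vitro iSEPs and at 0.0650, 0.140 and 2.25 in the in vivo iSEPs and not called there against ADSCs (adjusted p = 0.311 and 0.24). The 18 leukocyte markers summed to 54.2 to 90.1 FPKM in keratinocytes, of which S100a8 was 91.8% to 96.7%. Of the 18, 7, 10 and 12 were listed at 0 in keratinocyte mice 1, 2 and 3. In each of these libraries 2 were at 1 FPKM or more, S100a8 and Cd68. The part of leukocytes in the Tnf level was not tested.

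Mif, a cytokine with near-identical copies in the mouse genome so that its reads are uncertain, was the most abundant ligand gene in in vivo iSEP mice 1 and 2. It was at 72.3, 95.2 and 72.0 FPKM in ADSCs, 49.3, 55.9 and 57.4 in the in vitro iSEPs, 81.7, 63.4 and 67.6 in the in vivo iSEPs and 79.1, 88.4 and 88.1 in keratinocytes. The in vitro iSEPs lay below all others. They were lower than ADSCs (-0.54 ± 0.14, adjusted p = 0.00643) and than keratinocytes (-0.64, adjusted p = 0.0143); the latter call was lost without keratinocyte mouse 2 or 3 (0.0683 and 0.0612, range over the alternatives 0.00872 to 0.0683).

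The iSEPs were then set against keratinocytes, which grew in the same medium. The 2 comparisons share the keratinocyte libraries. Cxcl5 was lower in both, in the in vitro iSEPs (-1.88, adjusted p = 0.0226) and in the in vivo iSEPs (-2.59, adjusted p = 0.00624, at most 0.0327 under the 17 alternatives). The former call was lost without in vitro iSEP mouse 1 or 3 or any keratinocyte library (0.053 to 0.0868, range over the alternatives 0.0107 to 0.0868). Ccl8 was higher in the in vitro iSEPs (1.55, adjusted p = 0.0389), a call lost with the mouse number as a block (0.0588), with no filter (0.0693), and without any in vitro iSEP or keratinocyte library or ADSC mouse 2 (0.0521 to 0.133, range over the alternatives 0.0115 to 0.133). Ccl2 lay above the keratinocytes in all 3 in vitro iSEP libraries and was not called (1.83, adjusted p = 0.215). Without in vivo iSEP mouse 3, Ccl2 and Ccl7 were called higher in the in vitro iSEPs (adjusted p = 0.0124 and 0.0237, ranges over the alternatives up to 0.359 and 0.327). The summed stromal markers were also higher there, at 78.7 to 235 FPKM against 25.8 to 32.4 in keratinocytes. The part of remaining stromal cells in these ligand differences was not tested.

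Il11 was lower in the in vitro iSEPs than in keratinocytes (-1.14, adjusted p = 0.0426), a call lost with no filter (0.0718), with median scaling (0.0523) and without any in vitro iSEP or keratinocyte library or ADSC mouse 1 (0.0505 to 0.144, range over the alternatives 0.0116 to 0.144). In the in vivo iSEPs Il11 was not called (-1.14, adjusted p = 0.0558), but was with the mouse number as a block (0.0336, range over the alternatives 0.0142 to 0.22). Il33 was lower in the in vivo iSEPs than in keratinocytes (-1.11, adjusted p = 0.042). The Il33 call was lost with no filter (0.0644), with median scaling (0.0527), and without any in vivo iSEP or keratinocyte library, ADSC mouse 2 or in vitro iSEP mouse 3 (0.05 to 0.154, range over the alternatives 0.0269 to 0.154). Of the 62 calls on ligand genes over the 6 comparisons, 39 held under every alternative that tested the gene: 12 of 15, 12 of 17 and 13 of 18 against ADSCs, 1 of 8 and 1 of 3 against keratinocytes (Il18 and Cxcl5), and 0 of 1 between the iSEPs. For 26 of the 39 all 17 alternatives tested the gene. The other 13 (calls against ADSCs on Il6, Cx3cl1, Ccl9, Il11, Cxcl3 and Tnf) were not tested under 1 to 4 of them.

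In vivo and in vitro iSEPs differed in 1 called ligand, Il18. In vivo iSEP mouse 3 lay far from mice 1 and 2 for Ccl2, Ccl7, Csf1, Csf3, Ppbp, Cxcl1, Il1a, Il34 and Tnf. Without it, Ccl2 (-3.34), Ccl8 (-1.85), Cxcl16 (-0.93) and Il34 (-1.18) were called lower in in vivo than in the in vitro iSEPs (adjusted p = 0.00399, 0.0469, 0.0381 and 0.0284, ranges over the alternatives up to 0.537, 0.263, 0.364 and 0.891). In this library Krt8 was at 103 FPKM, the related keratin gene Krt18 at 95.5 FPKM and the epithelial adhesion gene Epcam at 116 FPKM. The 2 keratin genes together were at 52.07 to 65.15 FPKM in keratinocytes. The part of these genes in the result was not tested.

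The receptors for these ligands were measured in the same libraries. Of 44 listed receptor genes 22 were tested; 5 were higher and 10 lower than in ADSCs in the in vitro iSEPs, 3 and 11 in the in vivo iSEPs, and 3 and 12 in keratinocytes. Of all genes 32.1%, 27.6% and 32.8% were higher and 21.7%, 20.0% and 20.7% lower. Osmr, the receptor chain for oncostatin M, fell from 52.8 FPKM in ADSCs to 3.74 in the in vitro iSEPs and 2.78 in the in vivo iSEPs and was at 5.92 in keratinocytes (-3.50, -3.81 and -2.93, adjusted p = 1.09e-07, 5.41e-08 and 4.31e-07). Tnfrsf1b, a receptor for tumour necrosis factor, fell from 9.26 to 0.510 and 0.0733 FPKM and was at 0.272 in keratinocytes (-2.76, -3.25 and -3.00, adjusted p = 5.93e-08, 1.67e-08 and 2.87e-08). It passed the filter through ADSCs alone. With no filter Tnfrsf1b had adjusted p = 1.76e-07, 5.67e-08 and 9.26e-08. Tnfrsf11b, which encodes a soluble decoy for Tnfsf11, fell from 10.4 to 0.331 FPKM in the in vitro iSEPs (-3.12, adjusted p = 0.00207). Il1rl1, the Il33 receptor, fell from 44.2 to 5.77 FPKM in the in vivo iSEPs (-3.28, adjusted p = 0.00161), and in keratinocytes Il6st was at 17.1 against 119 FPKM (-2.64, adjusted p = 3.92e-05) and the interleukin-1 receptor gene Il1r1 at 6.01 against 37.3 (-2.31, adjusted p = 0.000294).

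Fewer receptors were higher than in ADSCs. Il6ra, the Il6-binding chain, rose from 1.64 to 10.6 FPKM in the in vitro iSEPs (1.97, adjusted p = 0.00381). Ptprz1, a phosphatase that also binds Il34, rose from 5.76 to 44.3 FPKM in the in vivo iSEPs (2.72, adjusted p = 0.000269). Ackr3, which takes up Cxcl12 without classical signalling, was at 13.2 FPKM in ADSCs and 66.9 in the in vitro iSEPs (2.13, adjusted p = 0.0136), a call lost without ADSC mouse 3 or in vitro iSEP mouse 1 (adjusted p up to 0.0573, range over the alternatives from 3.26e-05). Against keratinocytes 2 receptors were higher and 3 lower in the in vitro iSEPs, and 1 and 3 in the in vivo iSEPs (11.3% and 7.48% of all genes were called). The 5 called in the in vitro iSEPs became 1 without any keratinocyte library, 2 without ADSC mouse 2 and 3 without ADSC mouse 3 or any in vitro iSEP library. The 4 called in the in vivo iSEPs became 2 with the mouse number as a block or without ADSC mouse 2 or 3 or in vitro iSEP mouse 2, 1 without keratinocyte mouse 1 or 3, and 0 without in vivo iSEP mouse 2 or keratinocyte mouse 2. Il2rg, the shared chain of the Il15 receptor, was at 0.253 FPKM in the in vitro iSEPs against 4.84 in keratinocytes (-2.22, adjusted p = 0.000327). Between the iSEPs Il2rg was the 1 receptor called, at 2.39 FPKM in the in vivo iSEPs (1.39, adjusted p = 0.0126), a call lost without in vitro iSEP mouse 3 (0.061, range over the alternatives from 0.0103).

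Genes of NF-kB signalling were also compared, since NF-kB drives many ligand genes. All 29 listed genes were tested, and 12 were higher and 5 lower than in ADSCs in the in vitro iSEPs, 11 and 8 in the in vivo iSEPs, and 10 and 6 in keratinocytes. The 17, 19 and 16 called of 29 stood against 53.8%, 47.6% and 53.5% of all genes. Nfkbia, an NF-kB target that encodes its inhibitor, rose from 8.29 FPKM in ADSCs to 97.1 and 71.2 in in vitro and in vivo iSEPs and was at 59.3 in keratinocytes (3.38, 2.94 and 2.67, adjusted p = 3.72e-07, 1.25e-06 and 2.43e-06). Tnfaip3, another target that damps the pathway, rose from 1.92 to 10.1 and 7.90 FPKM in the iSEPs (1.86 and 1.46, adjusted p = 0.00255 and 0.012). Cebpd, a transcription factor gene of the acute-phase response, was lower in all 3 groups, at 25.2 FPKM in ADSCs against 4.07, 2.70 and 3.31 (-2.26, -2.71 and -2.50, adjusted p = 4.22e-05, 1.15e-05 and 1.91e-05). The interleukin-1 receptor kinase genes Irak2 and Irak3 were lower in both iSEPs (Irak2 -1.40 and -1.52, adjusted p = 0.000208 and 0.000127; Irak3 -1.70 and -1.49, adjusted p = 6.15e-05 and 0.000185). Against keratinocytes 2 NF-kB genes were called in the in vitro iSEPs (11.3% of all genes), Relb (10.1 against 4.80 FPKM, adjusted p = 0.0259) and Tlr4 (4.32 against 2.25 FPKM, adjusted p = 0.0298). Both were lost without in vitro iSEP mouse 2 or keratinocyte mouse 2 or 3, and Relb also without in vitro iSEP mouse 1 or keratinocyte mouse 1 and Tlr4 without in vitro iSEP mouse 3 or the filter (ranges over the alternatives 0.0111 to 0.0947 and 0.0142 to 0.12). Without in vivo iSEP mouse 3, 5 NF-kB genes were called there, while the count over all genes also went up, from 1403 to 2091.

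The last list held genes that process or release Il1 family cytokines and shed ligands, with 14 of 17 tested. Of these 7 were higher and 3 lower than in ADSCs in the in vitro iSEPs, 5 and 4 in the in vivo iSEPs, and 7 and 4 in keratinocytes. The 10, 9 and 11 called of 14 stood against 53.8%, 47.6% and 53.5% of all genes. The 10 called in the in vitro iSEPs became 6 without ADSC mouse 2 or in vitro iSEP mouse 3 and 5 without ADSC mouse 3. Pycard, the adaptor of inflammasomes that activate caspase-1 and so Il18, rose from 0.595 FPKM in ADSCs to 42.1 in the in vitro iSEPs and 23.2 in the in vivo iSEPs and was at 14.1 in keratinocytes (4.70, 3.78 and 3.24, adjusted p = 1.06e-06, 6.61e-06 and 1.94e-05). Its group means thus had the order seen for Il18. Those of Casp1, given below, did not, with in vivo above in vitro iSEPs. Gsdmd had the Il18 order among the epithelial groups but was highest in ADSCs. A link of Pycard with the Il18 level was not tested. Capn1, a protease of the kind that cleaves Il1a, rose from 27.3 to 135 and 134 FPKM and was at 82.9 in keratinocytes (2.26, 2.22 and 1.57, adjusted p = 1.80e-06, 2.24e-06 and 3.11e-05). Casp1, the Il18-activating protease gene, was at 4.22 FPKM in ADSCs and 14.0 in the in vivo iSEPs (1.51, adjusted p = 0.0106). In the in vitro iSEPs Casp1 was at 10.7 FPKM (1.12, adjusted p = 0.0398), a call lost with the mouse number as a block (0.0616), with no filter, with median scaling, and without ADSC mouse 1 or 3, in vitro iSEP mouse 2 or 3, in vivo iSEP mouse 2 or keratinocyte mouse 3 (range over the alternatives 0.00761 to 0.15). Gsdmd, which encodes the pore that releases processed cytokines, was at 12.3 FPKM in ADSCs and lower in the in vivo iSEPs at 3.81 and in keratinocytes at 1.40 (-1.51 and -2.51, adjusted p = 0.000933 and 1.94e-05).

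Against keratinocytes 4 of the 14 processing genes were higher and 1 lower in the in vitro iSEPs (5.22% and 6.12% of all genes). These 5 became 2 without ADSC mouse 2, any in vitro iSEP library or keratinocyte mouse 1, 1 without keratinocyte mouse 3 and 0 without keratinocyte mouse 2. Gsdmd was at 5.32 against 1.40 FPKM there (1.42, adjusted p = 0.00974), a call lost without keratinocyte mouse 2 (0.053, range over the alternatives from 0.00485). Pycard was at 42.1 against 14.1 FPKM (1.45, adjusted p = 0.0265), a call lost without in vitro iSEP mouse 1 or 3 or any keratinocyte library (range over the alternatives 0.0024 to 0.0933). In the in vivo iSEPs 1 gene was higher and 1 lower (3.41% and 4.08%), 1 in all with the mouse number as a block or without ADSC mouse 2, in vitro iSEP mouse 2 or 3, in vivo iSEP mouse 2 or keratinocyte mouse 2 or 3, and 4 in all without in vivo iSEP mouse 1 or 3. Aim2, a sensor of cytosolic DNA, was at 2.33 against 0.235 FPKM (1.42, adjusted p = 0.00719, at most 0.0408 under the 16 alternatives that tested it).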

How the data were processed

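RNA was sequenced from 12 primary mouse cultures, 3 in each of 4 groups, with an Illumina TruSeq RNA kit, per the labels' protocols; strand marking by the kit is not stated there. STAR 2.5.1b, HOMER and FastQC 0.11.5 were used with mm10, per the submitters' processing notes, and per the file header the authors' deposited table holds FPKM per RefSeq gene. It has 3 further sample columns that match no library here and were not used. From low FPKM values, 21010000 to 27770000 reads per library in listed genes were worked out (100% of these values whole within 0.15 reads).

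Log2(FPKM + 1) values were fitted with limma 3.58.1 (R 4.3.3, trend on) in 1 model with 4 group means over all 12 libraries. The 6 differences were tested over the 12364 genes at 1 FPKM or more in at least 3 libraries, with Benjamini-Hochberg adjustment and a threshold of 0.05. The fit was tested on simulated data. Figures used Python 3.11.15 and matplotlib 3.10.9. Alternatives were a pseudocount of 0.1 FPKM, no filter, a filter at 5 FPKM, scaling to equal medians, the replicate block, and each library left out. A gene below the filter under an alternative was not tested there; for genes lost with a library, the library was also left out with the 12364 genes kept, chosen after seeing the data.

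The members, the 4 ligand sets and the lists of receptors, NF-kB signalling genes, processing genes, stromal, epithelial, leukocyte, endothelial, melanocyte, platelet and simple keratin markers were chosen with earlier results of these data known. Values of every library were printed for members with a group mean of 5 FPKM or more; the others were given by range unless called, and up to 5 called genes with the largest change were named per pathway list. Endothelial marker sums were 0.571 to 9.62 FPKM and melanocyte marker sums 0.333 to 2.34 FPKM per library.

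The titles give each library a mouse number that recurs in every group and was read as the same animal. Deviations from the group means correlated between -0.178 and 0.21 over the 18 same-mouse pairs (median 0.045, 6 over 0.1) and had a median of -0.0135 over 36 other pairs. P-values rest on the spread between cultures within groups, pooled over the 4 groups. A library that stands apart thus also bears on comparisons without its group. The main fit treats the 12 libraries as independent.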

Additional observations from a re-analysis of the deposited data

How the results depend on the processing

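No difference of a ligand gene that was called changed sign under the alternatives that tested it, and 39 of 62 calls held under each of these, 26 of them with all 17 alternatives testing the gene; the cause of the lost calls was not tested. The other 13 were not tested under 1 to 4 alternatives because the gene fell below the filter, which also lowers the counts; with the genes kept when a library was left out, chosen after seeing the data, they held too. With the mouse number as a replicate block, in vivo against in vitro iSEPs went from 201 to 128 genes called and from 1 to 0 lower ligand genes, and in vitro iSEPs against keratinocytes from 2 to 1 higher ligand genes; in vivo iSEPs against keratinocytes had 2 receptor, 2 NF-kB and 1 processing gene called (4, 0 and 2 without the block). Beside the calls named in the report the block changed no other call on a ligand gene.

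With no filter on low values, higher ligand genes were 2 for in vitro iSEPs against ADSCs and 1 against keratinocytes, lower ligand genes 1 for in vivo iSEPs against keratinocytes and 0 against in vitro iSEPs, lower stromal ligands 1 and 1 for the iSEPs against keratinocytes, NF-kB genes 1 and processing genes 3 for in vitro iSEPs and processing genes 1 for in vivo iSEPs. With the filter at 5 FPKM, keratinocytes had 4 higher ligand genes and 3 higher epithelial ligands than ADSCs; against keratinocytes each kind of iSEPs had 1 lower stromal ligand and 2 receptors called, in vivo iSEPs had 1 processing gene, and between the iSEPs 0 receptors were called. With median scaling, higher ligand genes against ADSCs were 2 in in vitro iSEPs and 5 in keratinocytes (2 of them epithelial ligands), lower stromal ligands 1 and 1 against keratinocytes, and lower ligand genes 0 between the iSEPs. With a pseudocount of 0.1 FPKM, in vitro iSEPs had 2 higher epithelial ligands and in vivo iSEPs 4 lower stromal ligands and 2 receptors against keratinocytes, and between the iSEPs 0 lower ligand genes and 2 receptors were called.

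Leaving out 1 library at a time against ADSCs gave 2 to 5 higher ligand genes and 5 to 10 processing genes in in vitro iSEPs, 2 to 7 higher and 8 to 13 lower ligand genes and 2 to 5 higher epithelial ligands in in vivo iSEPs, and 3 to 7 higher epithelial ligands in keratinocytes. For in vitro iSEPs against keratinocytes the ranges were 447 to 2091 for all genes, 1 to 4 higher and 0 to 7 lower ligand genes, 0 to 2 lower stromal ligands, 1 to 7 receptors, 0 to 5 NF-kB genes and 0 to 7 processing genes. For in vivo iSEPs against keratinocytes they were 314 to 1669 for all genes, 0 to 3 higher and 1 to 7 lower ligand genes, 1 to 3 lower stromal ligands, 0 to 1 higher epithelial ligands, 0 to 6 receptors, 0 to 4 NF-kB genes and 1 to 4 processing genes. Between the iSEPs they were 53 to 348 for all genes, 0 to 4 lower ligand genes, 0 to 2 lower stromal ligands, 0 to 2 receptors and 0 to 1 NF-kB gene. Ligand genes with a few reads in a group, among them Il1a, Tnf, Csf2 and Csf3 in ADSCs, have no usable fold at this depth.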
